A study of Rattus norvegicus with 8 samples.

Results

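The genes described here are 9 genes of serine proteases, plasminogen activation and serpins in rat annulus fibrosus cells (AFCs): Prss35, Prss23, Htra1, Htra3, Plau, Plat, Plaur, Serpine2 and Serpinb1a. They were picked by gene symbol from the 31699 rows of a deposited RNA-seq table with the group values of these samples already known, and Prss35 was known to be among the largest rises. All comparisons of the 9 genes between the groups are therefore given as a description, without a p-value. AFCs were grown from the fibrous outer ring of intervertebral discs of Sprague Dawley rats, and all of them were exposed to cyclic mechanical stretch (CMS). The 4 libraries labelled Lv-Ctrl had received the empty vector pLVX-shRNA-Puro, and the 4 labelled Lv-Piezo1 had received pLVX-shRNA-Puro-Piezo1, which carries a short hairpin RNA against the mechanosensitive channel Piezo1. The cells were third-generation cultures, the tissue of several rats was pooled at each isolation, and the study states an age of rats with its animal surgery, not with these isolations. Cells without stretch or without virus are not analysed here.

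Serine proteases cut proteins with a reactive serine. In connective tissue, the urokinase and tissue-type activators turn plasminogen into plasmin, which degrades fibrin and matrix and activates other proteases. Serpins are suicide inhibitors that trap such proteases in a covalent complex. HtrA proteases degrade proteoglycans and other matrix proteins, and HTRA1 is known for its link to disc degeneration and osteoarthritis.

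The values are TPM, a transcript abundance scaled for transcript length and for the total of each library, so that levels can be compared between genes. They were compared as log2(TPM + 1) in the 13103 genes with a mean of at least 1 TPM over the 8 samples. A gene was called at a Benjamini-Hochberg adjusted p below 0.05 from limma together with an absolute log2 fold change of 1 or more. The Piezo1 transcript, target of the hairpin, was higher in libraries labelled Lv-Piezo1, with 39.4 ± 1.75 TPM against 30.1 ± 2.67 TPM (SD, n = 4 each, p = 0.029 in an exact two-sided permutation test, which cannot go lower here), so the groups are named by their labels throughout. A lower Piezo1 transcript was thus not seen under the label Lv-Piezo1, and the RNA does not measure the Piezo1 protein. Every direction given here rests on these labels and would turn if they had been exchanged, which was not tested. Of 8 annulus fibrous markers, Col1a1, Col1a2 and Thbs2 were above 1000 TPM in all 8 samples and Col5a1 above 100, Fmod, Scx and Mkx lay between 13.66 and 72.9 TPM, and Tnmd was listed at 0 in 7 samples. The cartilage collagen Col2a1 was below 1 TPM. Genes as a whole were higher in libraries labelled Lv-Piezo1 by a median of 0.14 on the log2 scale, and median-ratio scaling of the columns brought this median to -0.00462. The log2 fold change of Piezo1 was 0.38 without this scaling and 0.22 with it.

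Of the 9 genes, Prss35 and Serpinb1a were far higher and Serpine2 was far lower in libraries labelled Lv-Piezo1. Htra3 was lower by about the fold change threshold. The other 5, namely Prss23, Htra1, Plau, Plat and Plaur, had log2 fold changes between -0.18 and 0.17. All 9 passed the filter on low TPM, Serpinb1a only through its level in libraries labelled Lv-Piezo1, where it was high. The call was met by 3 of the 9 genes, 2 higher and 1 lower, where 7.67% of all tested genes were called, 4.91% as higher and 2.76% as lower. The groups did not overlap in 6 of the 9 genes, and in 54.2% of all tested genes. Nothing is read from these counts, because the genes were chosen with the same contrast known. In cultures, fewer cells that express a gene and less RNA of it per cell cannot be told apart.

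**Figure D1:**
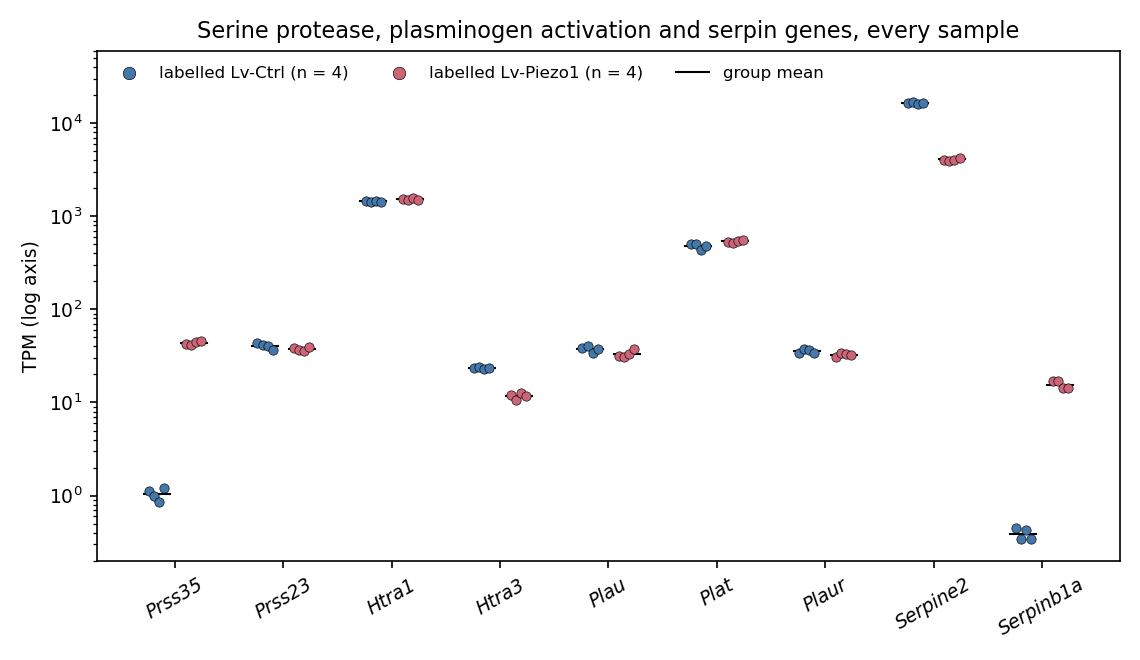
TPM on a log axis for the 9 genes, with 1 point per sample, blue for libraries labelled Lv-Ctrl, red for libraries labelled Lv-Piezo1 and a bar at the mean of the 4. Prss35 and Serpinb1a stand apart upward and Serpine2 and Htra3 downward, while the points of Prss23, Plau and Plaur overlap between the groups.

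Prss35 and Prss23 encode a pair of related secreted proteins of the trypsin fold. PRSS35 is known as a probable pseudoprotease, because its catalytic serine is replaced, and it is best known from the ovary. Prss35 measured 1.13, 0.99, 0.86 and 1.20 TPM in libraries 1 to 4 labelled Lv-Ctrl. The libraries 1 to 4 labelled Lv-Piezo1 gave 42.7, 41.0, 44.2 and 45.8 TPM. The groups were far apart, and in libraries labelled Lv-Piezo1 the gene stood above the level of Prss23. The means were 1.04 ± 0.151 and 43.4 ± 2.04 TPM (SD, n = 4 each), a ratio of 41.6, and the log2 fold change of TPM + 1 was 4.44 (standard error 0.07). Only 6 of the 13103 tested genes had a larger rise.

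Its relative Prss23 was similar in both groups. It measured 43.6, 41.3, 40.5 and 36.5 TPM in libraries 1 to 4 labelled Lv-Ctrl and 38.6, 36.9, 35.9 and 39.1 TPM in libraries labelled Lv-Piezo1. The groups overlapped, and the log2 fold change was -0.10 (standard error 0.06). The ratio of Prss35 to Prss23 within a sample, which no scaling of a column can alter, was 0.0212 to 0.0329 in libraries labelled Lv-Ctrl and 1.11 to 1.23 in libraries labelled Lv-Piezo1.

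The genes whose pattern over the 8 samples was nearest to that of Prss35 were Col4a3, a chain of basement membrane collagen, Acta2, which encodes smooth muscle actin, RGD1565462, the smooth muscle myosin gene Myh11 and the thin filament gene Cnn1. Nearness was the root mean square difference of the log2(TPM + 1) profiles, each centred on its own mean, and it ran from 0.157 for Col4a3 to 0.269 for Cnn1 over 8 samples. With 2 groups of 4, the measure mainly reflects the size of the step between the groups, which depends on the pseudocount. With a pseudocount of 0.1 the log2 fold change was 5.26 for Prss35, 6.32 for Col4a3 and 5.40 for RGD1565462. It was 4.71 for Acta2, 4.67 for Myh11 and 4.03 for Cnn1. Col4a3 had a mean of 0.335 TPM in libraries labelled Lv-Ctrl and passed the filter on low TPM only through the group in which it was high. RGD1565462 has a further row in the table with at most 0.17 TPM. All 7 smooth muscle markers examined were called higher in libraries labelled Lv-Piezo1, with a summed level of 311 to 322 TPM in libraries labelled Lv-Ctrl and 4384 to 4561 TPM in libraries labelled Lv-Piezo1, and none of them was listed at 0. Their part in the level of Prss35, or of the other genes here that differ between the groups, was not tested.

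Htra1 and Htra3 encode secreted matrix proteases of the HtrA family, both known as antagonists of TGF-beta signalling. Htra1 was the more abundant by a wide margin and measured 1470, 1426, 1463 and 1440 TPM in libraries 1 to 4 labelled Lv-Ctrl. The libraries 1 to 4 labelled Lv-Piezo1 gave 1543, 1514, 1561 and 1492 TPM. The lowest of these lay above the highest value labelled Lv-Ctrl, but the distance was small. The log2 fold change was 0.08 (standard error 0.03), below the median of all genes. It turned to -0.09 after median-ratio scaling and was 0.18 after quantile normalization, so no direction is given for Htra1.

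Htra3 measured 23.73, 24.27, 23.07 and 23.47 TPM in libraries 1 to 4 labelled Lv-Ctrl and 12.02, 10.62, 12.54 and 11.68 TPM in libraries labelled Lv-Piezo1. Every sample labelled Lv-Ctrl lay above every sample labelled Lv-Piezo1. The log2 fold change was -0.96 (standard error 0.05), just under the threshold of 1 in size. It met the threshold with a pseudocount of 0.1, with median-ratio scaling (-1.11) and with quantile normalization (-1.11). The ratio of Htra1 to Htra3 within a sample was 61.4 ± 1.95 in libraries labelled Lv-Ctrl and 131 ± 8.05 in libraries labelled Lv-Piezo1 (SD, n = 4 each), without overlap.

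**Figure D2:**
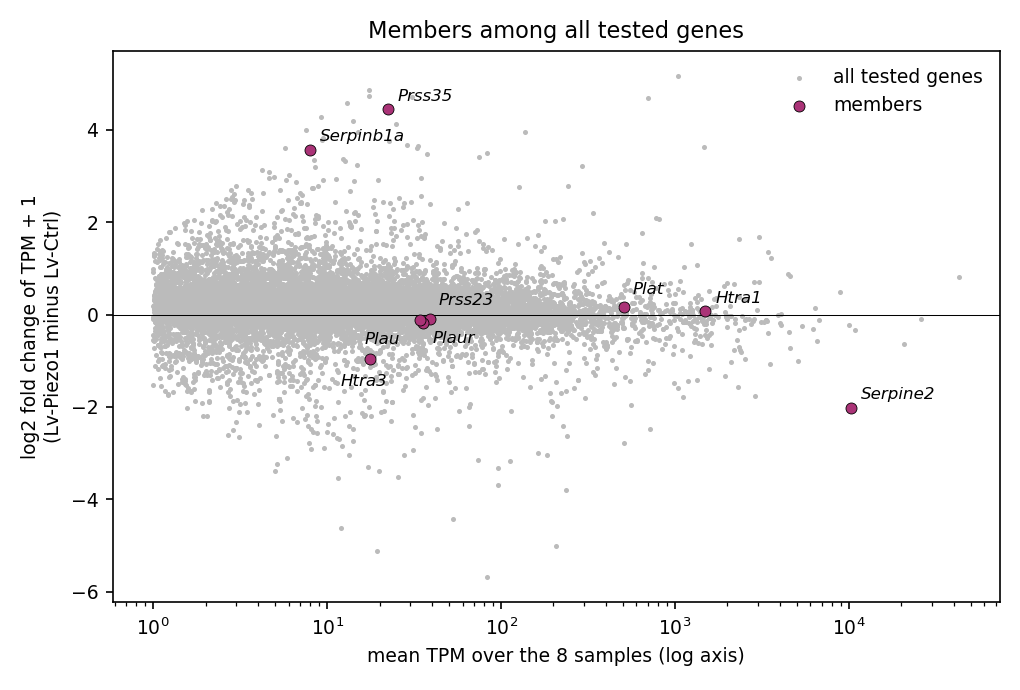
Mean TPM over the 8 samples on a log axis against the log2 fold change of TPM + 1, Lv-Piezo1 minus Lv-Ctrl, with 1 grey point for each of the 13103 tested genes and the 9 genes of interest in purple. Prss35 and Serpinb1a lie near the upper edge at moderate TPM, Serpine2 lies alone at the lower right, and Plau, Plaur and Prss23 lie in the bulk.

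Plau encodes the urokinase-type plasminogen activator, Plaur the cell surface receptor that holds it, and Plat the tissue-type activator. Plau measured 38.8, 40.3, 33.6 and 37.7 TPM in libraries 1 to 4 labelled Lv-Ctrl and 31.4, 30.5, 33.2 and 37.1 TPM in libraries labelled Lv-Piezo1. Plaur measured 33.6, 37.3, 36.7 and 34.1 TPM and then 31.1, 34.1, 33.4 and 32.2 TPM in the same order. For both genes the groups overlapped. The log2 fold change was -0.18 (standard error 0.07) for Plau and -0.11 (standard error 0.05) for Plaur. After median-ratio scaling these were -0.34 and -0.27, and after quantile normalization -0.30 and -0.23. The ratio of Plau to Plaur within a sample was 1.06 ± 0.103 and 1.01 ± 0.106 (SD, n = 4 each), so the ligand and its receptor had nearly equal TPM in both groups.

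Plat was the dominant activator transcript. It measured 498, 501, 438 and 474 TPM in libraries 1 to 4 labelled Lv-Ctrl and 530, 519, 546 and 559 TPM in libraries labelled Lv-Piezo1. The groups did not overlap, although the lowest value labelled Lv-Piezo1, 519 TPM, was close to the highest labelled Lv-Ctrl, 501 TPM. The log2 fold change was 0.17 (standard error 0.05), which was 0.03 above the median of all genes, and it was 0.01 after median-ratio scaling. The ratio of Plat to Plau within a sample was 12.7 ± 0.278 in libraries labelled Lv-Ctrl and 16.3 ± 0.888 in libraries labelled Lv-Piezo1 (SD, n = 4 each), and these did not overlap.

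Serpine2 encodes protease nexin-1, an extracellular serpin that inhibits thrombin, urokinase and the tissue-type activator. Serpinb1a encodes a clade B serpin of the cytoplasm that inhibits neutrophil serine proteases. They are the 2 serpins that met the call among the 9 genes, and their promoters are shown because they moved in opposite directions. RefSeq promoters of assembly GRCr8, from 250 bases before to 50 bases after the gene start, were found for 6 of the 9 genes. Both strands were searched for the TATA box, spelled TATAAA, for the GC box, spelled GGGCGG, for the AP-1 site, spelled TGANTCA, for CCAAT and for the CArG box. Capitals mark the matches.
Serpine2 (chr9:88637153-88637452, minus strand): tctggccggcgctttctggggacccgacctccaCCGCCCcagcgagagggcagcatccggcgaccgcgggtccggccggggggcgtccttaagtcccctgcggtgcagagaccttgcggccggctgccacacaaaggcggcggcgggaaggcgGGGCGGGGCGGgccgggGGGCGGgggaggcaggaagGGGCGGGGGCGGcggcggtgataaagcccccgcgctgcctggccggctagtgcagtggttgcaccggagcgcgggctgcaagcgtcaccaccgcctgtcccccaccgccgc
Serpinb1a (chr17:31799196-31799495, plus strand): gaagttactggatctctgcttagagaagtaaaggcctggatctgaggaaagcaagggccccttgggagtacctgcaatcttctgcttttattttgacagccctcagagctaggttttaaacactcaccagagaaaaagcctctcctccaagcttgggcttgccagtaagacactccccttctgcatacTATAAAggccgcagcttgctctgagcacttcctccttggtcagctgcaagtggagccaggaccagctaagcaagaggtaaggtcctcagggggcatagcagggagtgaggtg
The Serpine2 window held 6 GC boxes, of which a neighbouring pair shared 1 base, and 77.0% of its bases were G or C. The Serpinb1a window held 1 TATA box and no GC box, with 51.7% G or C, the same as the median of all promoters. Of the 33469 promoters of this length, 33.1% held a GC box and 14.2% a TATA box. In the remaining windows, 4 GC boxes were found for Htra3, 3 GC boxes for Plau, 2 CCAAT boxes for Htra1 and 1 AP-1 site for Plaur. An AP-1 site occurs in 7.33% and CCAAT in 37.5% of all promoters. No CArG box, which 1.64% of promoters hold, was found in the 6 windows. These matches are a description of the letters only.

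Serpine2 was one of the most abundant transcripts of these cells. It measured 16655, 16703, 15879 and 16464 TPM in libraries 1 to 4 labelled Lv-Ctrl, where it ranked 4 among all rows in each sample. The libraries 1 to 4 labelled Lv-Piezo1 gave 4002, 3971, 4068 and 4257 TPM, with a rank of 17 to 19. Its share of all TPM was 1.64% in libraries labelled Lv-Ctrl and 0.407% in libraries labelled Lv-Piezo1. The mean of 16425 ± 378 TPM was 4.03 times the mean of 4074 ± 128 TPM (SD, n = 4 each), with a log2 fold change of -2.01 (standard error 0.03). Among the 166 tested genes with a mean of at least 1000 TPM, 0 had a lower log2 fold change than Serpine2, and 11 were called lower.

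Serpinb1a measured 0.45, 0.34, 0.43 and 0.34 TPM in libraries 1 to 4 labelled Lv-Ctrl and 16.9, 16.8, 14.2 and 14.2 TPM in libraries labelled Lv-Piezo1. It was thus below 1 TPM in every library of one group and above 14 TPM in every library of the other. The means were 0.39 ± 0.0583 and 15.5 ± 1.55 TPM (SD, n = 4 each), a ratio of 39.8. The log2 fold change of TPM + 1 was 3.57 (standard error 0.09), and it was 5.00 with a pseudocount of 0.1, since adding 1 shrinks the fold change of weakly expressed genes.

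Serpinb1a lies in a cluster of clade B serpins. Its near copy Serpinb1b was listed at 0 in all 8 samples, and how reads shared by the copies were assigned is not given in the sources used here. The adjacent gene Serpinb6b had 0.075 ± 0.0574 and 0.765 ± 0.272 TPM (SD, n = 4 each), too low to be tested. On the other side Wrnip1 had 19.2 ± 1.53 and 25.4 ± 1.03 TPM (SD, n = 4 each). Of the cluster's other members, Serpinb9, an inhibitor of granzyme B, had 3.29 ± 0.403 and 7.52 ± 0.427 TPM, with a log2 fold change of 0.99 ± 0.08 (SE) at an adjusted p = 9.1e-06 from limma, just under the fold change threshold. Serpinb6a had 56.1 ± 5.81 and 55.8 ± 1.95 TPM (SD, n = 4 each). Prss35 lies between Me1, with 28.2 and 47.2 TPM, and Snap91, with 2.71 and 1.80 TPM in libraries labelled Lv-Ctrl and Lv-Piezo1. Serpine2 lies between Mrpl44, with 17.9 and 16.7 TPM, and Fam124b, which was listed at 0 in 7 of the 8 samples. The 4 tested adjacent genes did not meet the call, which 7.67% of all tested genes met. Their log2 fold changes were 0.72 for Me1, -0.41 for Snap91, 0.39 for Wrnip1 and -0.10 for Mrpl44. Among them the groups overlapped only in Mrpl44, while 54.2% of all tested genes had no overlap. Gene order is that of RefSeq on GRCr8, and these neighbours and the other clade B serpins were chosen after their values were seen.

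The order of the 9 genes by TPM was headed by Serpine2, Htra1 and Plat in both groups. In libraries labelled Lv-Ctrl these were followed by Prss23, Plau and Plaur, then by Htra3, Prss35 and Serpinb1a. In libraries labelled Lv-Piezo1 Plat was followed by Prss35, then Prss23, Plau and Plaur, then Serpinb1a and Htra3. In both groups the samples of Prss23 overlapped those of Plau, and those of Plau overlapped those of Plaur, so the order within this trio is not set. All other neighbours in the order were separate in all 4 samples of a group.

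To place these genes among their relatives, 172 other serine proteases, serpins, other protease inhibitors and protease receptors were listed by family. Of these, 168 have a row and 70 were tested. The call was met by 7 of the 70, 3 higher and 4 lower (10.0%, against 7.67% of all tested genes), and the median log2 fold change of the 70 was 0.12, against 0.14 for all genes. Without the fold change threshold, an adjusted p below 0.05 was reached by 49 of the 70, 34 higher and 15 lower, and by 58.2% of all tested genes.

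Of the 172, 15 belong to the plasminogen system, of which 9 were tested, and the 8 described here did not meet the call. S100a10, the plasminogen-binding partner of annexin A2, had 1551 ± 101 and 1022 ± 25.7 TPM with a log2 fold change of -0.60 (adjusted p = 6.1e-06 from limma). Anxa2 itself had 591 ± 16.7 and 570 ± 9.62 TPM (log2 fold change -0.05, adjusted p = 0.15 from limma), and it turned to just above 0 in 1 of 15 other settings. Eno1, a glycolytic enzyme that also serves as a plasminogen receptor, had 668 ± 13.1 and 1055 ± 18.0 TPM (log2 fold change 0.66, adjusted p = 9.4e-08 from limma). The plasminogen receptor gene Plgrkt had 27.5 ± 2.96 and 29.6 ± 1.39 TPM (log2 fold change 0.11, adjusted p = 0.25 from limma), with overlap of the groups and a change of sign in 2 of 15 other settings.

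Lrp1, the endocytic receptor that clears protease and serpin complexes, had 267 ± 38.9 and 254 ± 16.4 TPM (adjusted p = 0.63 from limma). Its chaperone Lrpap1 had 59.2 ± 1.14 and 62.8 ± 1.82 TPM (log2 fold change 0.08, adjusted p = 0.058 from limma), also with a change of sign in 2 of 15 settings. Igf2r, which also binds the urokinase receptor, had 100 ± 14.3 and 136 ± 7.58 TPM (log2 fold change 0.45, adjusted p = 0.0037 from limma), and Thbs1, which encodes the matricellular protein thrombospondin 1, had 4279 ± 692 and 3729 ± 334 TPM (adjusted p = 0.21 from limma). In Lrp1, Thbs1 and Igf2r the lowest of the 8 values was that of replicate 3 labelled Lv-Ctrl. Without it, limma gave Thbs1 a log2 fold change of -0.31 (adjusted p = 0.0058) in place of -0.19, and Lrp1 one of -0.16 (adjusted p = 0.056) in place of -0.06. With median-ratio scaling the log2 fold change was -0.35 for Thbs1, -0.22 for Lrp1 and -0.22 for Anxa2 (adjusted p = 0.014, 0.038 and 0.0057 from limma). With quantile normalization it was -0.18, -0.07 and 0.004 in the same order (adjusted p = 0.29, 0.57 and 0.89 from limma). The result thus depends on the normalization, and 0 of these 3 genes reached the fold change threshold in any setting. The remaining 6 genes were below the limit for testing. Plasminogen itself, Plg, was at most 0.07 TPM, Vtn and Cpb2 were listed at 0 in 7 samples each, Serpina5 was listed at 0 in all 8, and Serpinf2 and Serpinb2 were at most 0.45 and 0.28 TPM. The transcript of the activators' substrate was thus at or near 0 in these cultures. Plasminogen protein, including any from the fetal bovine serum in the culture medium, was not measured.

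Among the other families, the largest rises were those of Spink8 and Pcsk6. Spink8, a Kazal-type inhibitor gene, was listed at 0 in 2 libraries labelled Lv-Ctrl and reached at most 0.18 TPM in that group, against 3.70 to 5.05 TPM in libraries labelled Lv-Piezo1 (log2 fold change 2.28, and 4.71 with a pseudocount of 0.1). It passed the filter on low TPM only through the group in which it was high, so no p is given. Pcsk6, a proprotein convertase of the subtilisin fold, rose from a range of 3.40 to 4.14 TPM to one of 11.53 to 12.87 TPM (log2 fold change 1.43, adjusted p = 2.6e-07 from limma).

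The falls were those of 2 complement proteases, a surface peptidase and an inhibitor of the alpha-2-macroglobulin family. Cfd, complement factor D, had 4.06 ± 0.488 and 0.79 ± 0.620 TPM (SD, n = 4 each, log2 fold change -1.56, and -2.49 with a pseudocount of 0.1). It too passed the filter only through the group in which it was high, and no p is given. C1s fell from 417 ± 16.8 to 200 ± 4.84 TPM (SD, n = 4 each, log2 fold change -1.06, adjusted p = 2.9e-08 from limma). Fap, the fibroblast activation protein, fell from 13.6 ± 1.13 to 5.08 ± 0.346 TPM (log2 fold change -1.26, adjusted p = 8.2e-07 from limma). Cd109 fell from 28.3 ± 1.82 to 13.5 ± 1.39 TPM (log2 fold change -1.02, adjusted p = 4.7e-06 from limma), and it missed the threshold without replicate 2 labelled Lv-Ctrl or replicate 1 or 2 labelled Lv-Piezo1, with -0.97 as the smallest change. Of the 6 tested serpins outside the plasminogen list and the 9 members, 0 met the call in limma, with 4 at an adjusted p below 0.05, 2 higher and 2 lower. Of the 14 tested protease receptors and coagulation regulators 0 met the call, while 12 had an adjusted p below 0.05 and all 12 were higher. Of all tested genes, 58.2% were below 0.05, and 72% of those were higher, so nothing particular to this family is read from the count. It includes F2r, the thrombin receptor, with 106 and 172 TPM (log2 fold change 0.70), and Procr, the protein C receptor, with 75.3 and 137 TPM (log2 fold change 0.86). These 2 examples were chosen after their values were seen.

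**Figure D3:**
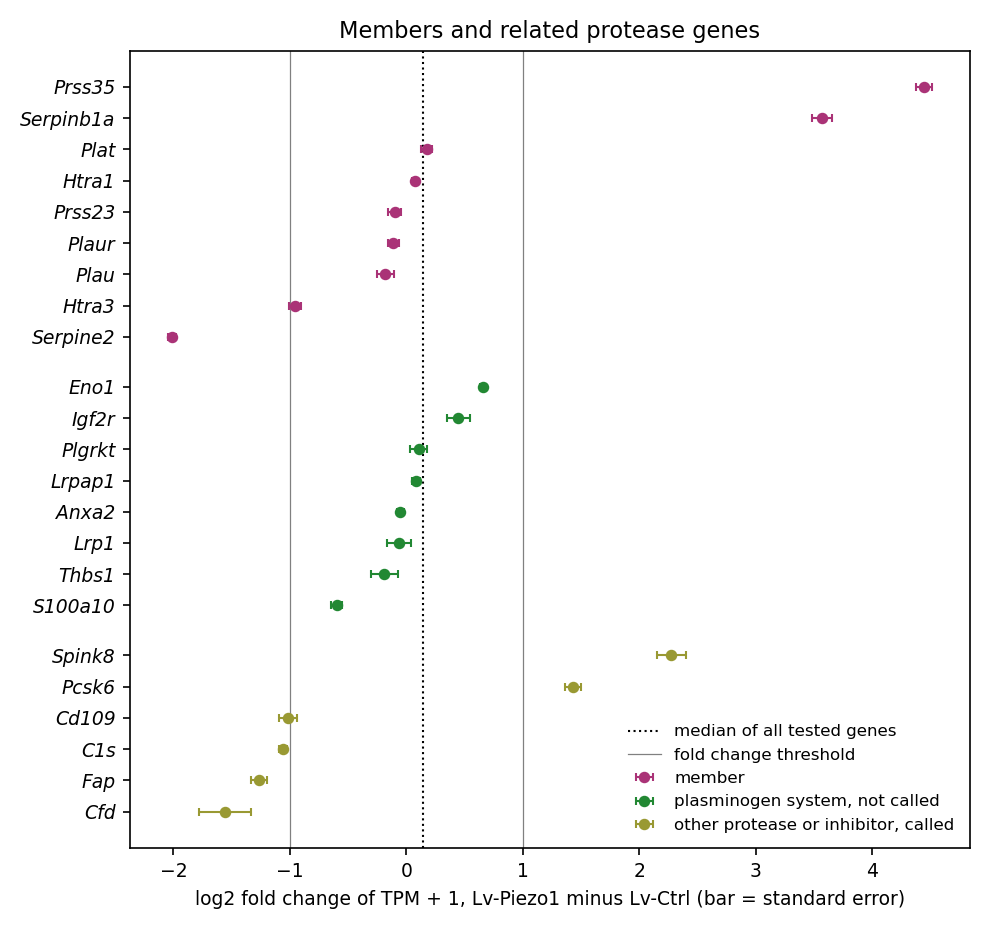
Log2 fold change of TPM + 1, Lv-Piezo1 minus Lv-Ctrl, with the standard error as a bar, for the 9 genes (purple), 8 tested genes of the plasminogen system (green) and the 6 called genes of the other families (olive). The dotted line is the median of all tested genes at 0.14 and the grey lines are the fold change threshold, between which 6 of the 9 purple points lie.

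Proteases of blood cells were close to absent. The 7 mast cell markers with a row summed to at most 0.17 TPM in any sample, and 6 of them, among them the tryptase and chymase genes Tpsb2, Tpsab1 and Cma1, were listed at 0 throughout. The 9 markers of neutrophils and cytotoxic lymphocytes summed to at most 0.76 TPM, with Elane and Ctsg, which encode targets of the Serpinb1a protein, at 0 in all samples. Of 7 macrophage markers, Cd68 was called higher (0.955 ± 0.899 to 12.3 ± 0.901 TPM, SD, n = 4 each). Cd68 passed the filter on low TPM only through the group in which it was high. The summed level of the 7 was 21.3 to 23.3 TPM in libraries labelled Lv-Ctrl and 37.3 to 41.9 TPM in libraries labelled Lv-Piezo1. Cd14 made up 20.61 to 27.86 TPM of it, Adgre1 was listed at 0 in every sample and Ptprc reached at most 0.01 TPM. Of 5 notochordal or nucleus markers, Cd24 was called higher (3.79 ± 0.207 to 21.9 ± 1.91 TPM), while Tbxt and Noto were listed at 0. The summed level of 7 endothelial markers was 25.2 to 34.0 TPM and 28.2 to 33.2 TPM in the groups, of which Egfl7 alone made up 24.66 to 33.66 TPM. The defining markers Cdh5 and Pecam1 were at most 0.21 TPM, Vwf at most 0.44 TPM and Emcn at 0. Of the chondrocyte-like markers, Comp was called higher (0.738 ± 0.216 to 2.86 ± 0.221 TPM, SD, n = 4 each). Comp also passed the filter on low TPM only through the group in which it was high. The summed level of 6 genes was 42.5 to 51.7 TPM and 60.5 to 64.1 TPM. Acan made up most of it, with means of 31.6 and 47.1 TPM. Hapln1 went the other way (means of 10.7 and 7.73 TPM, not called), and Sox9, Col2a1 and Chad overlapped between the groups. Of 7 tested fibrous markers 0 were called in limma, and all 7 had an adjusted p below 0.05, as did 58.2% of all tested genes. Col1a1, Col1a2, Col5a1 and Scx were higher (log2 fold change 0.83, 0.71, 0.47 and 0.89). Fmod, Mkx and Thbs2 were lower (log2 fold change -0.99, -0.76 and -0.56), with Fmod just under the threshold in size. The part of all these markers in the results above was not tested.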

How the data were processed

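RNA-seq libraries of stretched rat AFCs were analysed, 4 per label. Per the study's methods, the authors discarded reads with adapter, poly-N or low quality, used HISAT2 for the mapping to rat and StringTie for the assembly, and named FPKM as their unit. The deposited table holds TPM, as its column totals show, rounded to 2 decimals, with the mean of each group, which was not used. The submitters' processing notes name DESeq2 and the mouse build mm10, while the rows carry rat Ensembl identifiers; the rat build and annotation are not given in the sources used here. TPM is not a count and keeps no depth, so depth is unknown and precision rests on the spread of 4 samples. Whether counting used strand is not given either. The labels do not say whether samples came from separate cultures. The study's text calls them biological repeats, and p-values measure only the spread between these samples. Its methods count the differently treated cells of each isolation as a single independent repeat, which would pair the groups by isolation. The labels do not say which samples share an isolation, and the main fit ignores such a pairing.

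Groups were compared as log2(TPM + 1) with limma 3.58.1 in R 4.3.3 (empirical Bayes with a trend, Benjamini-Hochberg adjustment over 13103 genes with a mean of at least 1 TPM), without a block, after a test on simulated data. Columns were matched to samples through the labels. The members and all lists were chosen with earlier results of these data known. Named genes are the 9 members, Piezo1, the tested plasminogen system genes, up to 5 rises and 5 falls among called genes of the other families without overlap, and the 5 genes nearest to Prss35; others are marked as chosen afterwards, and the markers come from fixed lists. The result of 1 listed gene is not reported here. Each choice was varied in turn: pseudocount 0.1, no filter, a mean of at least 5 TPM, median-ratio scaling, quantile normalization, no trend, a replicate block, no fold change threshold, and leaving out each sample.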

Additional observations from a re-analysis of the deposited data

Results flagged for a closer look

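In the 60 groups of 4 values examined, 30 named genes in each of 2 groups, Dixon's ratio set apart 1 sample in 2 groups, and chance gives about 1 in 20. Cd109 was 25.5 TPM in replicate 3 labelled Lv-Ctrl, below the other 3 at 29.1 to 29.3 TPM. Acta2 was 1284 TPM in replicate 4 labelled Lv-Piezo1, below the other 3 at 1359 to 1369 TPM. Neither gene is among the 9 members, and 0 groups of the members were set apart.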

How the results depend on the processing

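Of all tested genes, 1005 were called (64.1% of them higher), 628 with a mean of at least 5 TPM, where fewer genes were tested, and 7626 without the fold change threshold. The share of higher calls was 52.3% with median-ratio scaling and 48.8% with quantile normalization. Without the fold change threshold, 49 of the 70 related genes and 6 of the 9 members were called, in place of 7 and 3. In that setting 58.2% of all tested genes were called, and nothing is read from the count of members. Prss35, Serpinb1a and Serpine2 met the call in 15 of 15 alternative fits, with log2 fold changes of 4.27 to 5.26, 3.35 to 5.00 and -2.17 to -1.61. Htra3 met it in 3 of 15, which made the members' calls 2 higher and 2 lower. These fits draw on the same 8 samples and the members were chosen with this contrast known, so nothing is read from their calls. Leaving out each sample gave 1006 to 1030 calls in all, 6 to 8 among the related genes and 3 members throughout. Replicate numbers did not pair the samples: deviations of same-numbered samples had correlations of -0.0576 to -0.0124, and 0 of the 8 samples correlated best with their own number. With the replicate block, 1004 genes, 7 related genes and 3 members were called, and Piezo1 was higher by 0.38. Depth is unknown for TPM, so differences below about 1 TPM, such as those of Serpinb6b, could be given no counting error.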
